A study of Mus musculus with 4 samples.

Results

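Microglia from AppSAA;TfRmu/hu mice given the brain-penetrant TREM2 antibody ATV:4D9 were compared with microglia from AppSAA;TfRmu/hu mice given ATV:ISO, 1 day after a single dose. The comparison comprised 35331 of the 74758 cells in the series, 16458 from 4 mice given ATV:4D9 and 18873 from 4 mice given ATV:ISO, selected by the group recorded for each cell. All 8 were 8-month-old males, homozygous for the AppSAA knock-in allele and for the TfRmu/hu allele, and each received 10 mg/kg intravenously. AppSAA mice carry mutations of familial Alzheimer's disease in the mouse App gene and deposit amyloid without a transgene promoter. In TfRmu/hu mice the apical domain of the transferrin receptor is human, so the control animals also carry the receptor that the antibody transport vehicle (ATV) binds. ATV:4D9 joins 4D9, an activating antibody against mouse TREM2, to an Fc domain engineered to bind that receptor. ATV:ISO carries the same vehicle and no TREM2 arm, and the deposited annotation labels it ATV-DNP02, which was read here as the isotype control named in the study's design. The mice were captured in 4 pools, with 1 mouse from each of the 5 groups per pool, so pool is both a capture batch and the pairing of the mice. The deposited descriptions differ on the tissue, cortex alone in one and cortex with hippocampus in another, and on whether the sort also used CD45 beside CD11b. The series also holds WT;TfRmu/hu mice given either antibody and AppSAA;TfRmu/hu mice given 4D9 without the vehicle, with 4 mice in each group.

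TREM2 is a lipid-sensing receptor of microglia, the resident macrophages of brain. It signals through the adaptor TYROBP (DAP12) and the kinase SYK, and it is needed for microglia around amyloid plaques to enter the disease-associated (DAM) state. DAM cells lower homeostatic genes such as P2ry12 and raise lipid, lysosomal and phagocytic genes such as Apoe, Cst7 and Lpl. The data address how far engaging TREM2 through a vehicle that reaches the brain moves these cells when amyloid is already present.

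Counts of unique molecular identifiers (UMIs) were summed over all cells of a mouse, which gave between 36020179 and 102446549 UMIs per mouse. Values per gene are CPM, the UMIs of the gene per 1000000 UMIs of the mouse after TMM scaling, which brings the mice to a common level for the bulk of genes. The 7 microglial markers summed to between 24570.0 and 29991 CPM in the ATV:ISO mice and to between 23783 and 27351 CPM in the ATV:4D9 mice. Among markers of other cells, the 4 astrocyte markers summed highest, to between 90.3 and 111 CPM after ATV:ISO and between 74.2 and 98.3 CPM after ATV:4D9, most of it from Slc1a3. The 4 oligodendrocyte markers summed to between 54.6 and 60.9 CPM and then between 39.2 and 58.4 CPM. B cell, border-associated macrophage and neutrophil markers summed to at most 21.7, 28.6 and 17.5 CPM in any mouse, and T cell, neuron and dendritic cell markers to at most 0.314, 1.17 and 2.65 CPM. The 4 endothelial markers summed to between 40 and 51.1 CPM after ATV:ISO and between 15.6 and 27.6 CPM after ATV:4D9, and the 4 monocyte markers to between 4.17 and 9.81 and between 11.1 and 13.6 CPM. Of the monocyte markers only Plac8 was called higher (log2 fold change 2.78), while Ccr2, Ly6c2 and Chil3 were called lower. The 3 NK cell markers summed to between 1.45 and 1.95 CPM and then between 0.202 and 0.483 CPM, and no marker of the 12 lists was at 0 throughout. The part of these cells in the results was not tested. Of 35193 distinct barcodes in these mice, 138 occurred in more than 1 pool.

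More UMIs were counted per cell after ATV:4D9. The median was 8444.5, 9194, 9883.5 and 9832 UMIs per cell in the ATV:ISO mice of pools 1 to 4, and 16475, 13560, 15837 and 16219 UMIs per cell in the ATV:4D9 mice. The groups did not overlap, and their means differed by 6184 UMIs per cell (exact permutation test, two-sided, p = 0.0286; 4 against 4 mice allow none smaller). CPM and the fold changes below are therefore shares of a larger total, and the per-cell scale is given where it changes a direction. Mice of both groups were captured together in each pool, and the ATV:4D9 mouse had the higher median in all 4 pools. Within a pool, more molecules captured per cell and more RNA per cell cannot be told apart.

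Most of the measured transcriptome differed between the antibodies. Of 14058 genes tested with edgeR's quasi-likelihood test, 9943 (70.7%) were called at an adjusted p under 0.05, 4856 (34.5%) higher and 5087 (36.2%) lower after ATV:4D9. Changes of over 2-fold were less balanced, with 1172 genes (8.34%) higher and 582 (4.14%) lower. Over all tested genes the log2 fold change had a median of -0.02, and the median size of change among the called genes was 0.48. In 6626 of the called genes the values of the 4 ATV:4D9 mice lay entirely above or below those of the 4 ATV:ISO mice. Over all tested genes, called or not, the groups lay apart in this way in 47.6%.

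Among genes at a mean of at least 10 CPM over the 8 mice, the steepest rises were in chemokine, interferon-stimulated and DNA replication genes. Cxcl11 (chr5:92359544-92365485, GRCm38), a ligand of the chemokine receptor CXCR3 that the mouse annotation lists as a polymorphic pseudogene, measured 5.38, 1.05, 5.74 and 6.34 CPM after ATV:ISO and 219.7, 126, 161 and 141 CPM after ATV:4D9. Its log2 fold change was 5.17 ± 0.25 (SE; edgeR adjusted p = 4.08e-12). Cxcl10 (chr5:92346638-92348889), another CXCR3 ligand, measured 144, 68.4, 164 and 158 CPM and then 4024, 1867, 2328 and 2364 CPM. Ccl12 (chr11:82101845-82103400), a monocyte-attracting chemokine, was at 249 to 413 CPM after ATV:ISO and reached 8009.6, 4378, 4926 and 3990.0 CPM after ATV:4D9. Among the ATV:4D9 mice, that of pool 1 was the highest for all 3 of these chemokines. The other 7 of the 10 largest rises were Cdc6, Dtl, Hells, Ccne2 and Ccne1, which act at the entry into S phase, and Oasl1 and Rsad2, which are antiviral interferon targets. Their log2 fold changes ran from 3.85 to 4.09. Lack of overlap between the groups and the same direction in all 4 pools were conditions for choosing these 10 genes.

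With the same limit of 10 CPM and the same conditions on overlap and pools, the deepest falls were smaller in size than the rises. Lgi2 (chr5:52533517-52566462), a secreted leucine-rich repeat protein, measured 25.8, 25.7, 21.6 and 20.8 CPM after ATV:ISO and 1.82, 6.01, 4.39 and 4.88 CPM after ATV:4D9 (log2 fold change -2.52 ± 0.22, edgeR adjusted p = 1.12e-08). Tmem163, a zinc transporter of vesicles, fell by 2.22 on the log2 scale, and Baiap2l2, a membrane-curvature adaptor, by 2.13. Ccl6, a chemokine of the DAM signature, was the most abundant of the 10: it measured 1031, 843, 891 and 628 CPM after ATV:ISO and 242, 251, 282 and 235 CPM after ATV:4D9. Ank, a pyrophosphate exporter and DAM gene, measured 286 to 415 CPM and then 94.8 to 112 CPM. The remaining 5 were Gm40841, Tcp11l2, Tsc22d1, Mamdc2 and Dkk2, with log2 fold changes from -1.80 to -1.65. For 9 of these 10 genes, all but Ccl6, the lowest value was that of the ATV:4D9 mouse of pool 1, the mouse that was also highest for the chemokines.

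**Figure D1:**
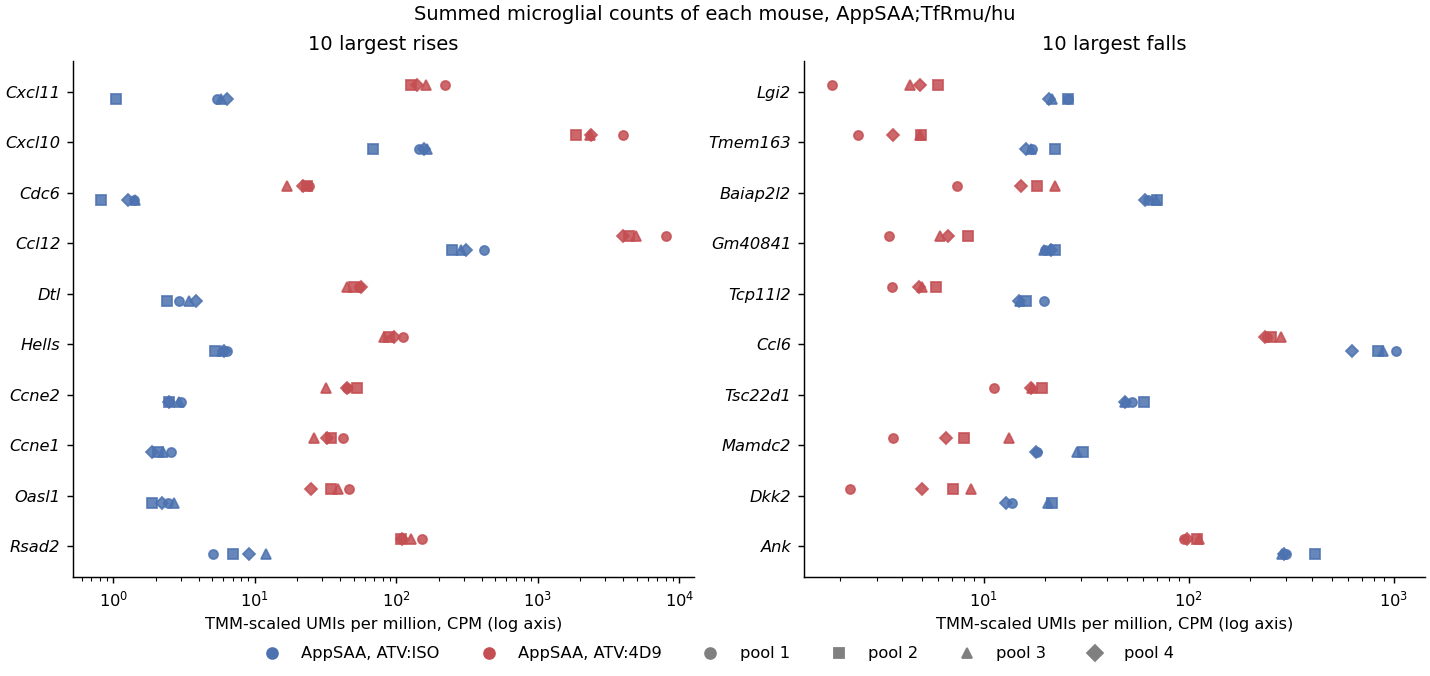
CPM of each mouse on a log axis for the 10 genes with the largest rises (left) and falls (right) after ATV:4D9 at a mean of at least 10 CPM, with colour giving the antibody and marker shape the pool. No gene shows overlap between antibodies, which was a condition for choosing them. The ATV:4D9 mouse of pool 1 (circles) lies at the extreme for Cxcl11, Cxcl10 and Ccl12 among the rises and for Lgi2, Baiap2l2 and Dkk2 among the falls.

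The rest of the transcriptome was read through 28 gene lists, each given by how many tested members were called in either direction and by the median log2 fold change of the members, beside the -0.02 of all tested genes. The counts are read against the 34.5% of all tested genes called higher and the 36.2% called lower. Counts per cell, which replace TMM scaling by the number of cells, are read against 67.7% higher and 6.91% lower. The plot of the list medians shows all 28.

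**Figure D2:**
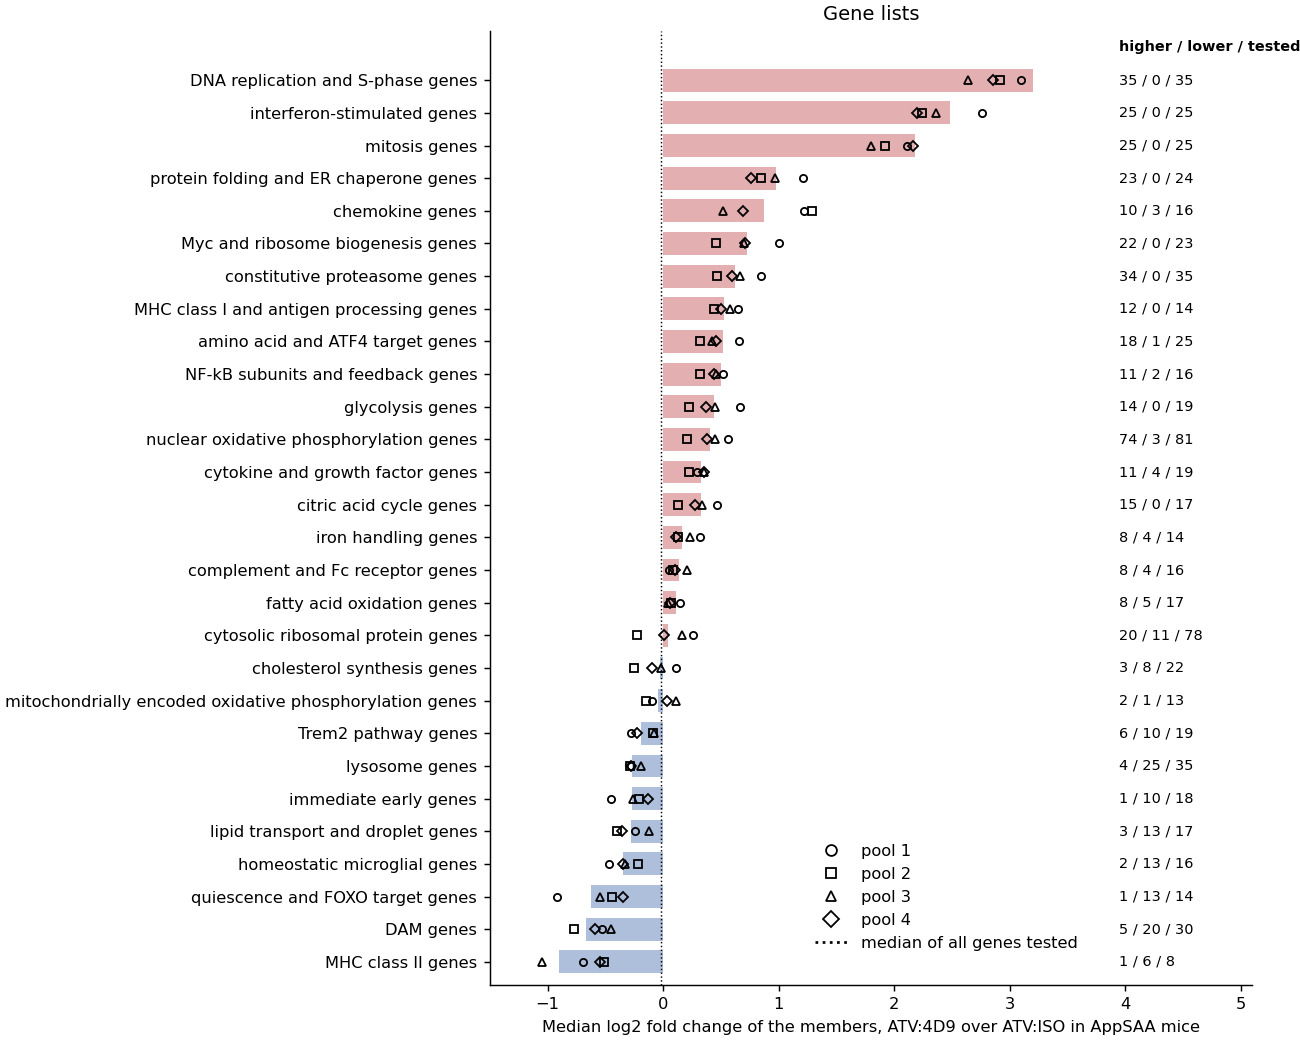
Median log2 fold change of the members of each gene list (bars), with the median within each pool on log2(CPM + 1) as open markers and the counts called higher, called lower and tested at the right. DNA replication, interferon-stimulated and mitosis genes stand highest, MHC class II and DAM genes lowest, and the dotted line is the median of all tested genes.

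Interferon-stimulated genes encode antiviral effectors and the factors that induce them. All 25 tested were called higher, each by over 2-fold against 8.34% of all genes tested, with a median of 2.48 and a range from 1.20 to 3.92. Isg15 (chr4:156199424-156200818), a ubiquitin-like modifier, measured 54.4, 53.1, 56.1 and 45.5 CPM after ATV:ISO and 893, 546, 627 and 412 CPM after ATV:4D9. Ifit3, which binds foreign RNA complexes, measured 28.8 to 35.8 CPM and then 223 to 419 CPM. The lowest ATV:4D9 mouse, that of pool 4, was still several times above every control mouse for Isg15 and Ifit3.

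Antigen presentation divided by class. Among MHC class I and processing genes, 12 of 14 were higher and none lower (median 0.53). Psme2, a proteasome activator subunit induced by interferon, rose from 120.2 to 165 CPM to 255 to 440.4 CPM. B2m, the invariant chain of class I, was not called: it measured 2789, 3032, 3199 and 2914 CPM after ATV:ISO and 3053, 2931, 3716 and 3012 CPM after ATV:4D9. Of 8 MHC class II genes, 6 were lower and 1 higher (median -0.90). H2-Aa, a class II chain, measured 133, 179, 444 and 135 CPM after ATV:ISO, where pool 3 stood apart, and 57.0, 85, 151 and 79.1 CPM after ATV:4D9. Its groups overlapped, while each pool moved the same way (log2 fold change -1.19 ± 0.22, edgeR adjusted p = 1.24e-04). H2-DMb1, a peptide exchange factor, was the 1 member called higher, by 0.19, and Cd74, the invariant chain of class II, was not called (log2 fold change -0.38, edgeR adjusted p = 0.0659). Cd74 was called lower without the ATV:ISO mouse of pool 1 (-0.53) or of pool 4 (-0.49), with only the 8 mice fitted (-0.32) and with thinned counts (-0.40), while per cell its value was 0.12.

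Most chemokine genes and part of the cytokine genes rose. Of 16 chemokine genes, 10 were higher and 3 lower (median 0.87), and their summed level went from 4958 to 6305 CPM after ATV:ISO to 13687 to 23772 CPM after ATV:4D9. Ccl4, an inflammatory chemokine, measured 2186 to 2772 CPM and then 4019 to 6445 CPM. Ccl3, its close relative, rose less, with a log2 fold change of 0.44 ± 0.09 and overlapping groups. Of 19 cytokine and growth factor genes, 11 were higher and 4 lower (median 0.33). Tnf measured 200.5, 107, 194 and 203 CPM after ATV:ISO and 1039, 510.4, 809 and 839 CPM after ATV:4D9 (log2 fold change 2.19 ± 0.15, edgeR adjusted p = 5.24e-10). In both groups pool 2 was lowest for Tnf. Il1b, a pyrogenic cytokine, had a smaller change of 0.60 and overlapping groups. Igf1, a growth factor of DAM and developmental microglia, fell from 105 to 152 CPM to 22 to 69.3 CPM, and Csf1, ligand of the receptor that keeps microglia alive, from 189 to 288 CPM to 115 to 189 CPM.

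NF-kB genes followed in part: 11 of 16 were higher and 2 lower (median 0.50). Nfkbia, the inhibitor that NF-kB itself induces, measured 649 to 1013 CPM and then 879.7 to 1442 CPM. Icam1, an adhesion molecule, measured 126 to 179.6 CPM and then 189.5 to 319.9 CPM. Tnfaip3, a feedback deubiquitinase, was not called (log2 fold change 0.12, edgeR adjusted p = 0.336), and Rela, an NF-kB subunit, was lower by 0.24, with overlapping groups. Immediate early genes, which respond within minutes to stimuli and to tissue dissociation, went the other way on the relative scale, with 10 of 18 lower and 1 higher (median -0.27). Per cell 8 were higher and 3 lower (median 0.23), where 67.7% of all genes were higher and 6.91% lower. Egr2 measured 33.0 to 41.0 CPM and then 13.5 to 15.2 CPM. Ier3, the 1 member called higher, measured 263 to 403 CPM and then 459 to 783 CPM, and Fos was not called (log2 fold change -0.01, edgeR adjusted p = 0.968). Without the cells of deposited cluster 3, in which immediate early genes summed to 31542 CPM, the median of the list was 0.14, with 8 members higher and 4 lower, and Fos was called higher (0.63, edgeR adjusted p = 1.90e-05). Cluster 3 came from the same counts and held 25.1% of cells after ATV:ISO and 3.78% after ATV:4D9. Leaving it out removed cells high in these genes mostly from the controls. An upward shift was thus built in, and no conclusion is drawn from it.

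DNA replication genes had the highest median of the 28 lists. All 35 DNA replication and S-phase genes were higher, each by over 2-fold (median 3.20), and all 25 mitosis genes were higher, 23 of them by over 2-fold (median 2.18). Hells (chr19:38930915-38971051), a chromatin remodeller of replicating cells, measured 6.39, 5.27, 5.88 and 6.09 CPM after ATV:ISO and 111, 88.1, 82.4 and 95.7 CPM after ATV:4D9 (log2 fold change 3.99 ± 0.11, edgeR adjusted p = 1.85e-15). Mcm5 (chr8:75109569-75128439), a subunit of the replicative helicase, measured 10.5, 10.4, 12 and 11.7 CPM and then 144, 95.7, 101 and 110.2 CPM. Rrm2, the regulated subunit of ribonucleotide reductase, measured 3.34 to 4.11 CPM and then 32.8 to 56.3 CPM. Among mitosis genes, Top2a, the topoisomerase of chromosome condensation, measured 16.1 to 21.6 CPM and then 118 to 158 CPM. Cdk1, the mitotic kinase, measured 14.9 to 15.9 CPM and then 57.3 to 82.9 CPM. Ccnb1, its cyclin, remained scarce at 7.61 to 11 CPM against 2.02 to 3.28 CPM. The lists summed to 2167 to 3015 CPM for S phase and 653 to 788 CPM for mitosis after ATV:4D9, against 380.3 to 411 and 145 to 161 CPM after ATV:ISO.

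Promoters of Cdc6, Mcm5 and Isg15 are shown because every tested member of the S-phase and interferon-stimulated lists rose by over 2-fold, and that of Cxcl10, a chemokine gene outside these lists, because it was among the 10 rises named above. Each window shown holds a match, whereas some others of those 10 rises hold none, as given below the sequences. Windows of 250 bases before to 50 bases after the start, from RefSeq on GRCm38.p6, were searched on both strands for E2F-type sites, which cell cycle factors of that name bind, spelled TTTCCCGC, TTTCGCGC, TTTGCCGC or TTTGGCGC, and for the interferon response element spelled GAAANNGAAA. Overlapping matches were each counted and marked. An E2F-type match was present in 12 of the 29 S-phase genes that have a promoter in the table (41.4%), in 1 of 21 mitosis genes (4.76%) and in 499 of 10494 tested genes (4.76%). An interferon response element match was present in 10 of 18 interferon-stimulated genes (55.6%), in 2 of 10 chemokine genes and in 409 of 10494 tested genes (3.9%). By promoter rather than by gene, 2.26% of all 32851 windows held the E2F-type match and 3.44% the interferon response element. These are letter matches and not sites shown to be bound. In the sequences below, written 5' to 3' on the strand of the gene, capitals mark the E2F-type match in Cdc6 and Mcm5 and the interferon response element in Isg15 and Cxcl10.
Cdc6, chr11:98907901-98908200, plus strand: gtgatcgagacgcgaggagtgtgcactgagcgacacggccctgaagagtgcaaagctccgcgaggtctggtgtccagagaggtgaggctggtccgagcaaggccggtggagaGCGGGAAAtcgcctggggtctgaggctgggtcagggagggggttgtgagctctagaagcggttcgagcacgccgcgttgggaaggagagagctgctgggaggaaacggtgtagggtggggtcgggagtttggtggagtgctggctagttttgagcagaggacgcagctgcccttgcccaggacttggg
Mcm5, chr8:75109259-75109558, plus strand: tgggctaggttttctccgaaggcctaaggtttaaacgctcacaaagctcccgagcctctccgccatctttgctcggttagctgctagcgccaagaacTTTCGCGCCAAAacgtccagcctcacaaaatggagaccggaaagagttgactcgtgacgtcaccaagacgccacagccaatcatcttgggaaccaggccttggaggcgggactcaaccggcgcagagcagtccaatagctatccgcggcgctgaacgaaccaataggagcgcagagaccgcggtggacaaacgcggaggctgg
Isg15, chr4:156200769-156201068, minus strand: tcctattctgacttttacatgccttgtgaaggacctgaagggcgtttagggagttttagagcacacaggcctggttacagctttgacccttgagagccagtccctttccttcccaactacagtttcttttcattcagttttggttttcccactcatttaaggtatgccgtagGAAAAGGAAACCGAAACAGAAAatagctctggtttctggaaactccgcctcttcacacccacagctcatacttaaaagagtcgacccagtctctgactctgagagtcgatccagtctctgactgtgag
Cxcl10, chr5:92348840-92349139, minus strand: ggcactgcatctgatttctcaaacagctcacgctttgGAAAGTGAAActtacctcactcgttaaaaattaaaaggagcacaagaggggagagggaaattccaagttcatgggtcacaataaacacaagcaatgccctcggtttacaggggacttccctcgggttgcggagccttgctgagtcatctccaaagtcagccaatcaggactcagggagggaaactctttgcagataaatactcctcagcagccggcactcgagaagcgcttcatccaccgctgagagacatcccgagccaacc

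Among the other top-ranked genes, the windows of Hells, Dtl and Rsad2 each held 1 match, and those of Ccne1, Oasl1 and Ccl12 held none of the letters searched. No window was available for Ccne2 and Cxcl11. The matches of Isg15 began between 78 and 66 bases before the start, and the match of Cdc6 began 138 bases before it.

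Quiescence genes, which restrain the cell cycle or are induced by FOXO factors when growth signals are low, were lower as a share of the transcriptome: 13 of 14 were lower and 1 higher (median -0.62), and per cell 6 were lower and 3 higher. Ccng2, a cyclin induced by FOXO factors, measured 68.2, 66.5, 70.5 and 64.3 CPM after ATV:ISO and 21.9, 33.7, 31.9 and 30.6 CPM after ATV:4D9. Cdkn1b, the CDK inhibitor p27, measured 57.0 to 68.0 CPM and then 31.5 to 46.9 CPM. Pik3ip1, an inhibitor of PI3 kinase, fell by 1.10 on the log2 scale. Bcl6, a transcriptional repressor, was the exception at 0.17, with overlapping groups. Its call was lost without the ATV:ISO mouse of pool 4 (0.14) or the ATV:4D9 mouse of pool 1 (0.16) or pool 3 (0.14).

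Biosynthetic genes rose alongside. Of 23 Myc and ribosome biogenesis genes, 22 were higher and none lower (median 0.73). Ncl, the nucleolar protein nucleolin, measured 309 to 356 CPM and then 604 to 817 CPM. Srm, which makes spermidine, measured 54.5, 51.9, 41.2 and 40.5 CPM and then 170.5, 102, 98.0 and 96.4 CPM, and Odc1, which starts polyamine synthesis, rose by 1.32 ± 0.10 on the log2 scale. Myc itself changed by 0.35 ± 0.10 without overlap. The 78 cytosolic ribosomal protein genes were nearly balanced, with 20 higher and 11 lower (median 0.04), and per cell 76 were higher and none lower. Their median within pools ran from -0.23 in pool 2 to 0.26 in pool 1. Rps27l, the highest of that list, is a stress-induced relative of Rps27, which had the deepest fall at -0.44. How reads of these close copies were assigned was not tested.

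Protein folding and ER chaperone genes were higher in 23 of 24 (median 0.98). Hspa5, the main ER chaperone BiP, measured 985, 879, 755 and 763 CPM after ATV:ISO and 2746, 2115, 1830.3 and 1457 CPM after ATV:4D9. Creld2, an ER stress target, had the highest rise of the list at 1.46 ± 0.10. Among proteasome genes 34 of 35 were higher (median 0.62), and Psmd14, a deubiquitinase of the proteasome lid, rose from 42.2 to 46.8 CPM to 82.9 to 109 CPM. Of 25 amino acid and ATF4 target genes, 18 were higher and 1 lower (median 0.52). Shmt2 and Mthfd2, mitochondrial enzymes of the folate cycle, rose by 1.84 ± 0.08 and 1.78 ± 0.10. Slc7a5, the large neutral amino acid transporter, measured 12.9 to 15.9 CPM and then 24.1 to 35.2 CPM. Atf4 itself was the 1 member called lower, at -0.18 with overlapping groups, and its call was lost without cluster 3 (-0.02). Psat1, of serine synthesis, was not called. It was called lower without cluster 3 (-0.20) and higher per cell (0.58).

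Energy metabolism rose most clearly in its nuclear-encoded parts. Of 81 nuclear oxidative phosphorylation genes, 74 were higher and 3 lower (median 0.41). Cycs, cytochrome c, measured 90.2, 88.0, 70.1 and 73.1 CPM after ATV:ISO and 295, 192, 184 and 180.1 CPM after ATV:4D9 (log2 fold change 1.39 ± 0.08, edgeR adjusted p = 3.59e-11). Cox5a, of complex IV, measured 147 to 185 CPM and then 277 to 417 CPM, and Uqcrh, of complex III, was among the 3 that fell, by 0.29 with overlapping groups. The 13 mitochondrially encoded subunits stayed near 0: 2 were higher, 1 lower and 10 not called (median -0.04). The calls for mt-Nd1 (0.32) and mt-Nd4l (-0.13) were lost without the replicate block, and that for mt-Nd4l also without the pool 2 mouse of either group (-0.11 for each), without the ATV:4D9 mouse of pool 1 (-0.10) and in cells with 1000 to 25000 UMIs (-0.06). The sum of the 13 followed the pools, 13588 CPM in pool 2 and 22520.3 CPM in pool 4 after ATV:4D9 against 15051 and 21386 CPM after ATV:ISO. In the citric acid cycle 15 of 17 were higher (median 0.33), led by Idh3a at 1.13 ± 0.07. Glycolysis genes were higher in 14 of 19 and lower in none (median 0.44). Pkm, pyruvate kinase, measured 479.7, 476, 441 and 403 CPM and then 1128, 696, 769.6 and 711 CPM. Ldha, lactate dehydrogenase, measured 226 to 298 CPM and then 469 to 834 CPM. Hk2, a hexokinase, was not called (log2 fold change 0.03, edgeR adjusted p = 0.517). In all of Cycs, Cox5a, Pkm, Ldha and Srm the ATV:4D9 mouse of pool 1 was well above the other 3.

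Fatty acid oxidation and cholesterol synthesis were mixed on the relative scale, while per cell 16 of 17 and 17 of 22 were higher and none lower, where 67.7% of all genes were higher. Among 17 oxidation genes, 8 were higher and 5 lower (median 0.11), with Acadl, a long-chain dehydrogenase, at 0.69 and Acads, its short-chain relative, at -0.53. Cpt1a, the carnitine transferase of mitochondrial entry, was lower by 0.16, with overlapping groups, and its call was lost without the pool 1 mouse of either group (-0.14 without ATV:ISO, -0.15 without ATV:4D9) or the pool 4 mouse (-0.10 and -0.11). Of 22 cholesterol synthesis and uptake genes, 3 were higher and 8 lower (median -0.03), so that the share called lower was close to the 36.2% of all genes. The median was 0.14, with 7 higher and 4 lower, in cells with 1000 to 25000 UMIs, and -0.25, with 1 higher and 12 lower, without the cells of cluster 3. Hmgcs1, an early enzyme of the pathway, measured 37.5 to 47.2 CPM and then 24.8 to 28.6 CPM. Sqle, squalene epoxidase, was not called.

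The DAM signature fell as a share of the transcriptome. Of 30 DAM genes, 20 were lower and 5 higher (median -0.67). Per cell, 12 were lower and 10 higher (median -0.17), where 6.91% of all genes were lower and 67.7% higher. Their summed level went from 59050.0 to 73219 CPM after ATV:ISO to 47982 to 57702 CPM after ATV:4D9. Cst7 (chr2:150570415-150578944), which encodes cystatin F, an inhibitor of lysosomal proteases, measured 1657, 1897, 1566 and 1328 CPM and then 816, 1066, 1126 and 828 CPM. Itgax, the integrin CD11c, measured 134, 182, 182 and 147 CPM and then 77.9, 95.5, 122 and 97.4 CPM. Clec7a, the beta-glucan receptor dectin-1, measured 336 to 458 CPM and then 206 to 269 CPM. Apoe, the main lipid carrier of the brain, measured 8306, 10398, 9636 and 8041 CPM and then 3188, 5297, 7183 and 4354 CPM, and Lpl, lipoprotein lipase, 470.5 to 570.0 CPM and then 246 to 403 CPM. For these 5 genes no ATV:4D9 mouse reached the lowest control. Spp1 and Gpnmb, genes of the late DAM stage, had larger spread: Spp1 measured 1093, 826, 1206 and 410.1 CPM and then 280.2, 397, 497 and 210.4 CPM. Its log2 fold change was -1.40 ± 0.50 (edgeR adjusted p = 0.0194), and the call was lost without the ATV:ISO mouse of pool 1 (-1.02) or of pool 3 (-1.28), and without the ATV:4D9 mouse of pool 2 (-1.29) or of pool 4 (-1.32). In cells with 1000 to 25000 UMIs the calls for Spp1 (-0.73, edgeR adjusted p = 0.0933) and Gpnmb (-0.53 in place of -1.24, edgeR adjusted p = 0.0676) were lost. Lgals3bp, a secreted glycoprotein that interferon also induces, was the largest rise of the list at 0.85 ± 0.10, and Axl, a receptor for apoptotic cells, was not called (log2 fold change 0.21, edgeR adjusted p = 0.105), though its groups did not overlap. Axl was called higher with only the 8 mice fitted (0.22), in cells with 1000 to 25000 UMIs (0.40), without the ATV:4D9 mouse of pool 4 (0.30) and per cell (0.71), and was at -0.09 without cluster 3.

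Lysosome and lipid genes, which share 6 and 3 members with the DAM list, were lower in 25 of 35 (median -0.27) and 13 of 17 (median -0.28), against the background of 36.2% lower. Per cell, 25 lysosome genes were higher and 2 lower, and 9 lipid genes were higher and 2 lower, shares that were close to or under the 67.7% of all genes called higher on that scale. Ctsl, cathepsin L, measured 2166 to 3266 CPM and then 1289 to 1749 CPM. Lamp1, a lysosomal membrane protein, measured 1102 to 1388 CPM and then 878 to 1099 CPM. Atp6v0d2, a proton pump subunit, measured 10.2, 13.4, 13.2 and 6.33 CPM and then 1.14, 4.15, 6.27 and 2.87 CPM. Fabp5, a fatty acid binding protein, measured 295 to 503 CPM and then 73.9 to 212 CPM. Soat1 and Plin2, which serve lipid droplets, fell by 0.45 and 0.34, while the cholesterol exporter Abca1 rose by 0.14 with overlapping groups and Abcg1 was not called. The call for Abca1 was lost without the ATV:ISO mouse of pool 2 (0.09).

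Homeostatic genes were lower in 13 of 16 and higher in 2 (median -0.35), and per cell lower in 3 and higher in 7. P2ry12, the ADP receptor of process motility, had the deepest fall: it measured 1680.2, 1511, 1620.5 and 1804 CPM and then 543, 887, 673 and 790.0 CPM (log2 fold change -1.20 ± 0.10, edgeR adjusted p = 5.31e-09). Cx3cr1, the fractalkine receptor, measured 2949 to 3627 CPM and then 2244 to 2923 CPM, and Csf1r, the receptor for CSF1, 2040.0 to 2416 CPM and then 1807 to 1846 CPM. Olfml3 and Tmem119 were the 2 called higher, at 0.26 and 0.16, each with overlapping groups. The call for Tmem119 was lost without the ATV:ISO mouse of pool 2 (0.07) or of pool 4 (0.17) and without the ATV:4D9 mouse of pool 2 (0.12) or of pool 3 (0.16).

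The target receptor, its adaptor and its kinase were themselves lower as a share of the transcriptome, while the wider pathway was divided. Per cell the adaptor Tyrobp (0.00) and the kinase Syk (0.02) were not called. Trem2 (chr17:48346401-48354147) measured 4907, 5239, 4419.7 and 4077 CPM after ATV:ISO and 2732, 3203, 2868 and 2675 CPM after ATV:4D9 (log2 fold change -0.69 ± 0.06, edgeR adjusted p = 6.05e-09). Tyrobp, its adaptor, measured 5564 to 7240.3 CPM and then 3976 to 4899 CPM, and Syk, the kinase, 51.2 to 59.2 CPM and then 32.9 to 43.3 CPM. Of the 19 genes of the TREM2 pathway, 10 were lower and 6 higher (median -0.19), and per cell 2 were lower and 12 higher, a share close to the 67.7% of all genes called higher per cell. Without cluster 3, 8 were lower and 7 higher (median -0.08). Pik3cg, a PI3 kinase subunit, fell by 0.71, and Lyn, a Src-family kinase, rose from 355 to 435 CPM to 461 to 548 CPM. Adam10, a protease that sheds TREM2, rose by 0.17 with overlapping groups, and Plcg2, the phospholipase downstream of SYK, was not called (log2 fold change 0.01, edgeR adjusted p = 0.735). App measured 132 to 151 CPM and then 139.8 to 156 CPM and was not called either (edgeR adjusted p = 0.222).

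Iron handling genes include Tfrc, whose product is the receptor that the vehicle binds. Tfrc (chr16:32608920-32632794), the transferrin receptor, measured 5.41, 6.79, 6.73 and 7.55 CPM after ATV:ISO and 25.4, 16.6, 24.8 and 25.5 CPM after ATV:4D9 (log2 fold change 1.79 ± 0.09, edgeR adjusted p = 1.16e-11). Fth1, ferritin heavy chain, measured 6182 to 8169.9 CPM and then 8549 to 12625 CPM. Slc40a1, the iron exporter ferroportin, measured 59.7 to 69.9 CPM and then 25.3 to 44.4 CPM. Over the list, 8 of 14 were higher and 4 lower (median 0.16).

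Complement and Fc receptor genes divided between members. C5ar1, the receptor of the anaphylatoxin C5a, measured 113, 69.5, 71.0 and 81.0 CPM and then 382, 191, 225 and 228 CPM. Fcgr4, an activating Fc receptor, measured 19.5 to 22.2 CPM and then 44.7 to 59.6 CPM. Fcgr3, another activating Fc receptor, fell from 932 to 1049 CPM to 463 to 573 CPM. C1qa, the first complement component, rose by 0.26 with overlapping groups, and C3ar1 was not called. Over the list, 8 of 16 were higher and 4 lower (median 0.14).

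The cells also shifted between the 6 clusters that the authors deposited. Clusters are known here by number, and the list levels that describe them used the same counts as the clustering, so they are a description only, and the shares of clusters restate the expression differences above rather than add to them. Over the cells of the 8 mice, clusters 0 and 3 held the highest homeostatic level (35033 and 31154 CPM), cluster 3 also the highest immediate early level (31542 CPM), and cluster 1 the highest DAM level (92547 CPM). Cluster 4 held the highest S-phase and mitosis levels (4607 and 2335 CPM) and the most UMIs per cell (median 19792), cluster 5 the highest interferon-stimulated and chemokine levels (12331 and 26337 CPM), and cluster 2 the highest glycolysis level (7046 CPM).

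After ATV:ISO the cells lay mostly in clusters 0, 1 and 3, and after ATV:4D9 mostly in clusters 2, 4 and 5. Cluster 0 held 32.5%, 28.1%, 31.5% and 31.2% of cells in the ATV:ISO mice and 0.926%, 5.09%, 1.53% and 2.52% in the ATV:4D9 mice. Cluster 1, the cluster with the highest DAM level, held 38.3% ± 4.64 after ATV:ISO and 13.5% ± 3.05 after ATV:4D9 (SD, n = 4), and cluster 3 held 25.1% ± 3.27 and 3.78% ± 1.85. Cluster 2 went from 2.51%, 1.97%, 2.81% and 2.07% to 41.8%, 31.2%, 33.9% and 34.7%. Cluster 4, with the highest S-phase level, went from 0.949% ± 0.190 to 22.4% ± 3.33, and cluster 5 from 2.48% ± 1.05 to 22.4% ± 4.26. In each of the 6 clusters the groups did not overlap and every pool moved the same way (exact permutation test, two-sided, p = 0.0286 before and after adjustment over 6 clusters). That test exchanged mice without regard to pool. In the finer deposited clustering, 8 of 9 clusters differed, and cluster 8 did not, at 5.0% ± 1.80 against 3.62% ± 0.796 (exact permutation test, adjusted p = 0.229). The summed fold changes above join a change in which cells were present to any change within cells, and these cannot be told apart in the sums.

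**Figure D3:**
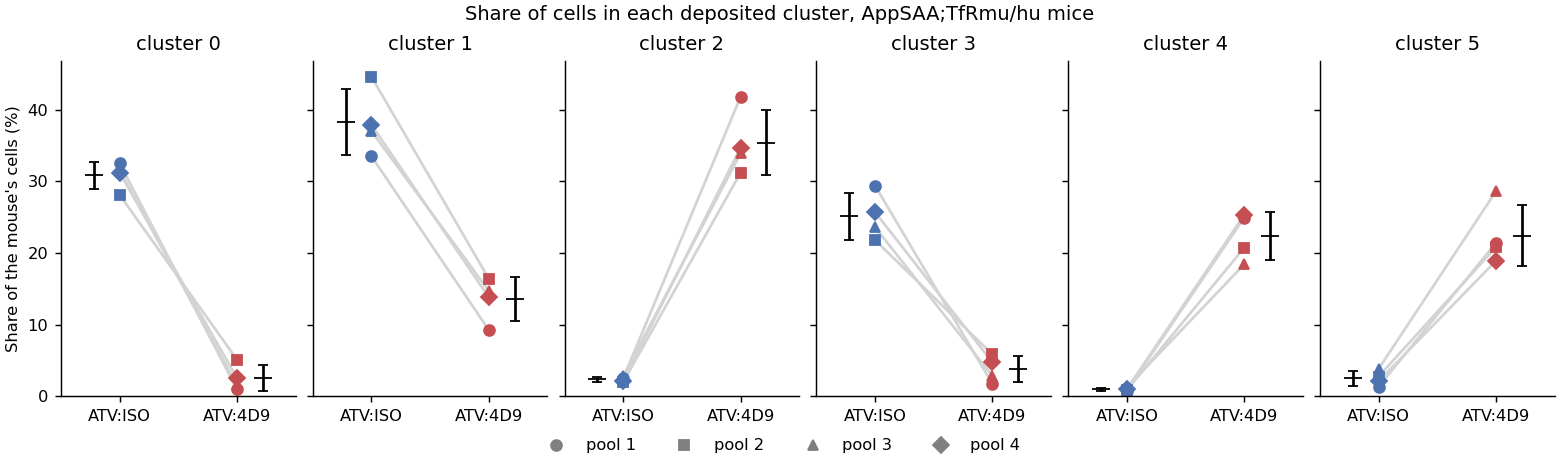
Share of a mouse's cells in each of the 6 deposited clusters, with marker shape giving the pool, grey lines joining mice of 1 pool, and black bars giving the mean and SD of 4 mice. Clusters 0, 1 and 3 lose and clusters 2, 4 and 5 gain cells after ATV:4D9 in all 4 pools.

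On the per-cell scale, with the number of cells in place of TMM scaling, the median log2 fold change of all genes was 0.48, and rises outnumbered falls by 9514 (67.7%) to 972 (6.91%). All 4856 genes called higher on the relative scale were also called higher per cell. Of the 5087 called lower, 972 were called lower per cell and 1767 were called higher. The list medians kept their direction per cell for the rising lists and for MHC class II (-0.40), DAM (-0.17) and quiescence genes (-0.13), and turned from negative to positive for homeostatic (0.15), lysosome (0.24), lipid (0.22), immediate early (0.23), TREM2 pathway (0.32), mitochondrially encoded (0.45) and cholesterol synthesis genes (0.47). The last 2 lists were near 0 on the relative scale, at -0.04 and -0.03. Trem2 remained lower per cell, at 45.5 ± 2.54 UMIs against 52.1 ± 3.56 UMIs (SD, n = 4), whereas Cx3cr1, at 41.1 ± 7.77 against 36.2 ± 7.14 UMIs per cell, was called higher (edgeR adjusted p = 0.0171). Among genes named above, Csf1r, Lamp1, Atf4, Rela, Cpt1a, Uqcrh and mt-Nd4l also turned from lower to higher per cell. The falls of Lpl, Itgax, Csf1, Hmgcs1, Acads, Spp1, Syk and Tyrobp were no longer called. Soat1, Plin2 and Rps27 were likewise not called per cell.

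**Figure D4:**
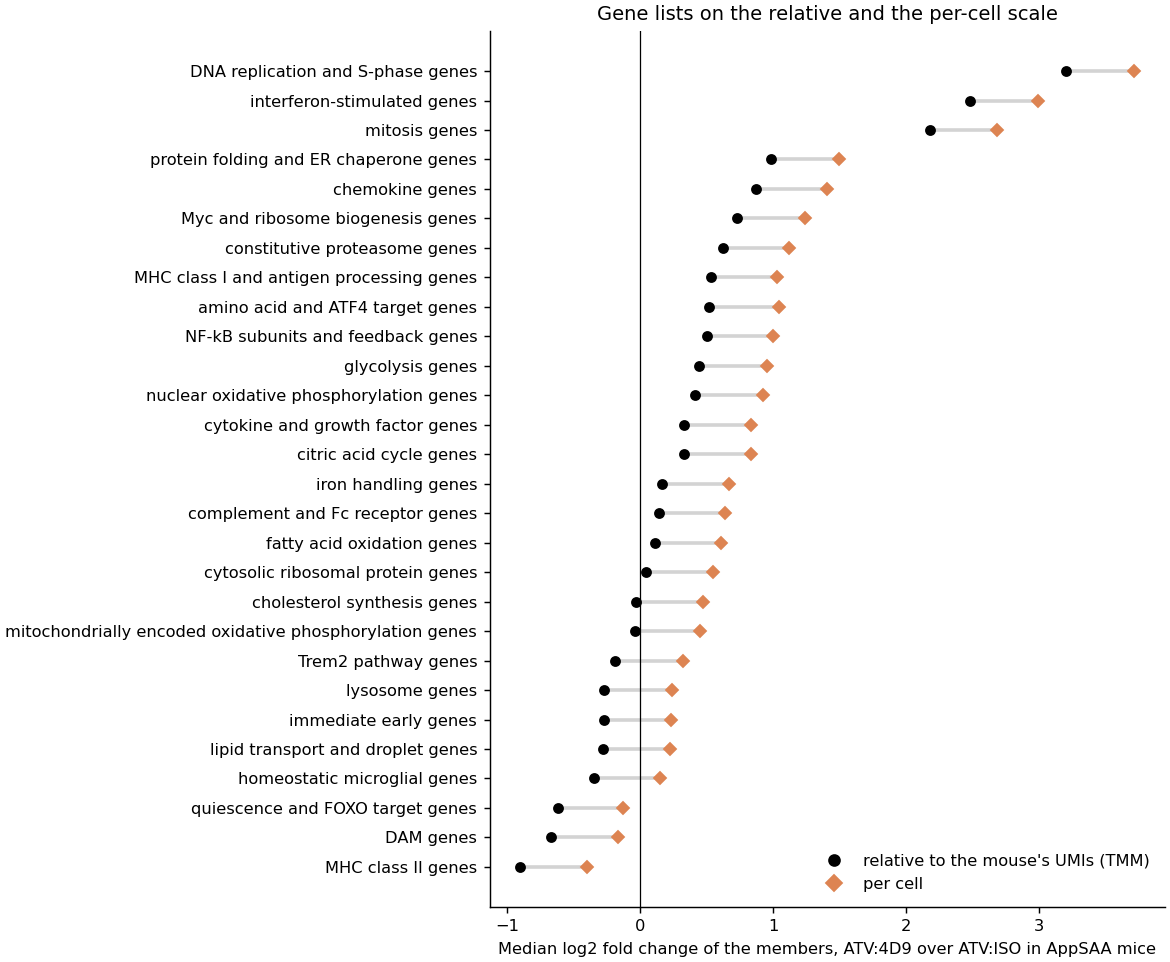
Median log2 fold change of each gene list relative to the mouse's UMIs (black circles) and per cell (orange diamonds). Every list moves to the right by about the 0.48 of the median gene, and homeostatic, lysosome, lipid, immediate early, TREM2 pathway, cholesterol synthesis and mitochondrially encoded lists cross 0.

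The same antibody pair in WT;TfRmu/hu mice asks whether amyloid alters the response. The WT mouse of pool 4 given ATV:ISO was female and the other WT mice were male. The difference between genotypes was not refitted without her. The difference between the effects was called in 4284 of 14058 genes (30.5%), larger in AppSAA for 2377 (16.9%) and smaller for 1907 (13.6%). Larger and smaller refer to the signed log2 fold change, so a deeper fall in AppSAA counts as smaller. This division depended on scaling, with 1797 and 2169 under RLE size factors and 238 and 6180 per cell. Without the pool as a replicate block, 1285 genes were called, 533 larger and 752 smaller. These tests share the AppSAA mice with the comparison above. The median of the DAM genes was -0.67 in AppSAA and 0.54 in WT, and 21 of 30 had a smaller log2 fold change in AppSAA and none a larger one. Cst7 rose in WT from 101 ± 5.08 to 258 ± 34.3 CPM (SD, n = 4) and fell in AppSAA, and at its lowest in AppSAA, 816 CPM, it was still above WT. Lpl, Itgax, Clec7a and Csf1 also rose in WT and fell in AppSAA, with differences between the effects of -2.50, -1.79, -1.22 and -1.81. Apoe and Spp1 instead fell in both genotypes, with log2 fold changes in WT of -1.04 and -2.30. Their differences between the effects, 0.13 and 0.90, were not called. The DAM result was the same in direction under RLE (21 smaller, 0 larger), per cell (26 and 0) and without the replicate block (15 and 0).

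Cell cycle genes rose in both genotypes and less in AppSAA, with 32 of 35 S-phase genes and 18 of 25 mitosis genes called smaller, and with 28 and 13 called without the replicate block. Hells reached 129 ± 5.03 CPM in WT from 3.77 ± 0.846 CPM, a log2 fold change larger by 1.10 than in AppSAA. Ribosomal protein genes were smaller in 75 of 78, glycolysis genes in 13 of 19 with 1 larger, and cholesterol synthesis genes in 16 of 22, where Sqle and Idi1 differed by -1.74 and -1.34. Without the block these counts were 43, 8 and 11. All 13 mitochondrially encoded genes and 6 of 8 MHC class II genes had a lower log2 fold change in AppSAA, and 1 of each without the block. MHC class II genes had a median of -0.90 in AppSAA and -0.03 in WT, where the median of all genes was -0.05. The list thus fell in AppSAA and not in WT. In WT, Cd74 rose from 125 ± 14.2 to 257 ± 35.5 CPM (log2 fold change 1.05) and H2-DMb1 rose by 0.34. H2-Aa was not called in WT (-0.17, edgeR adjusted p = 0.551). Psat1, the serine synthesis enzyme, rose from 17.2 ± 1.51 to 75.0 ± 8.97 CPM in WT and differed by -2.05, and AppSAA microglia were at 66.0 to 84.3 CPM after ATV:ISO.

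Interferon-stimulated genes leaned the other way: 14 of 25 rose more in AppSAA and none less, with 12 and 0 under RLE, 4 and 0 per cell, and 4 and 0 without the block. Isg15 differed by 0.93, Cxcl10 by 0.73 and Cxcl11 by 1.80. Per cell the differences were 0.59 for Isg15 and 0.40 for Cxcl10, neither of them called, while that of Cxcl11 was still called. Cxcl13, a B cell chemokine, had the largest positive difference among genes at 10 CPM or more, 2.56: it went from 5.56 to 15.8 CPM to 54.1 to 135 CPM in AppSAA, and from 6.09 ± 3.31 to 7.88 ± 3.38 CPM in WT. Hspa1b, an inducible chaperone with a near-identical neighbour Hspa1a, and Ifi213, an interferon-induced DNA sensor, differed by 1.97 and 1.55. Homeostatic genes had a median of -0.35 in AppSAA and -0.62 in WT, with 8 of 16 called larger in AppSAA on the relative scale. This was not kept per cell (0 larger, 3 smaller), and without the block 2 were called larger and 0 smaller. Trem2 was lower by 0.21 in WT and differed by -0.48 between the genotypes. Tyrobp was not called in WT (log2 fold change 0.01, edgeR adjusted p = 0.897) and differed by -0.51, and Tfrc differed by -0.58.

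**Figure D5:**
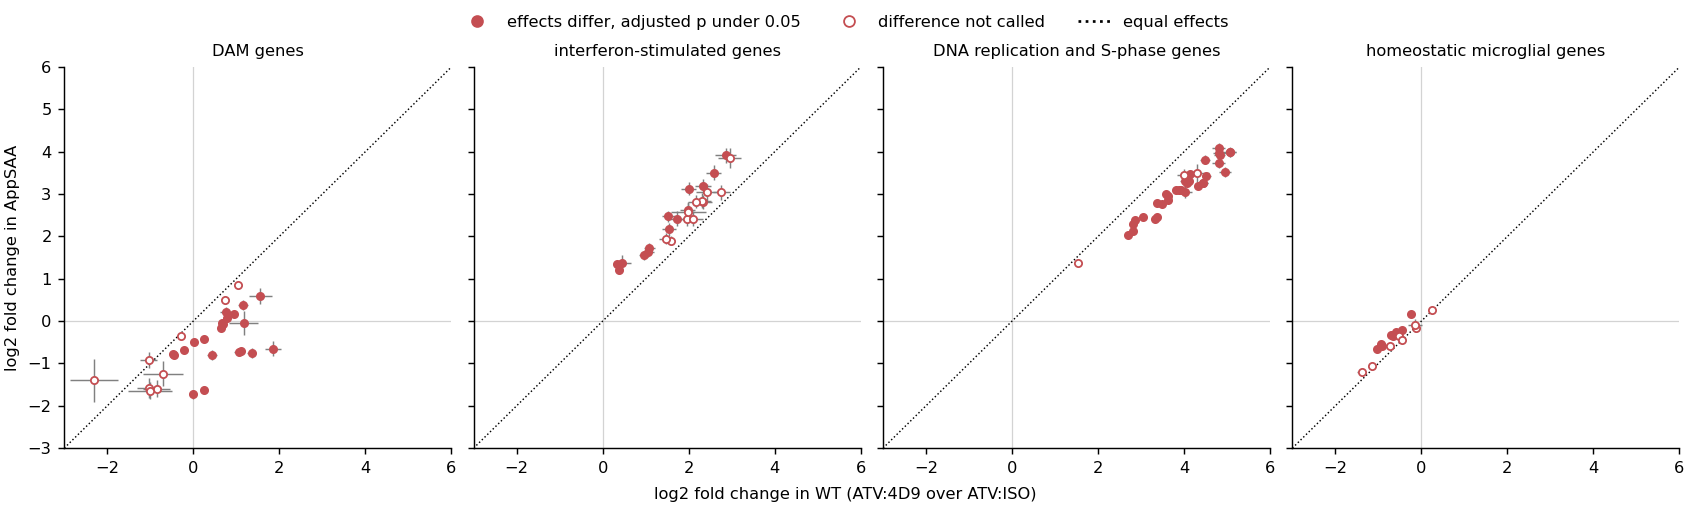
Log2 fold change of ATV:4D9 over ATV:ISO in AppSAA mice (vertical axis) against that in WT mice (horizontal axis) for the members of 4 gene lists, with SE bars and filled points where the effects differ at an adjusted p under 0.05. The called DAM genes (21) and S-phase genes (32) lie below the line of equal effects, and the called interferon-stimulated (14) and homeostatic (8) genes lie above it.

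The antibody 4D9 without the vehicle addresses what the transferrin receptor binding adds. ATV:4D9 against 4D9 in AppSAA mice called 9823 of 14058 genes (69.9%), 4813 higher and 5010 lower, and this comparison shares its ATV:4D9 mice with the comparison against ATV:ISO. Between the 4D9 and ATV:ISO groups, 0 genes were called by edgeR, DESeq2 or limma voom, with 280, 204 and 222 genes at an unadjusted p under 0.05. Levels after 4D9 were, as mean ± SD of 4 mice, 145 ± 42.7 CPM for Cxcl10, 46.0 ± 9.96 CPM for Isg15, 5.47 ± 1.07 CPM for Hells, 1675 ± 106 CPM for Cst7 and 4730.1 ± 340.5 CPM for Trem2, each mean within the range of the ATV:ISO mice. Other named genes had means outside that range. Among them were Lgi2 at 17.4 ± 4.21 against 20.8 to 25.8 CPM, Ifit3 at 27.2 ± 7.08 against 28.8 to 35.8 CPM, and Mki67 at 20.1 ± 5.72 against 14.8 to 19.0 CPM. The median log2 fold changes of 4D9 over ATV:ISO ran from -0.19 for interferon-stimulated genes to 0.27 for mitosis genes over the 28 lists, and were 0.04 for DAM and 0.02 for S-phase genes.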

How the data were processed

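Single cells from 20 mice in 4 pools, marked with CellPlex oligonucleotides and captured with Chromium 3' v3.1 chemistry, were processed by the authors with Cell Ranger 6.1.1 on mm10, per the submitters' processing notes and the study's methods. The authors deposited raw UMI counts of 19737 genes in 74758 demultiplexed cells, with an annotation giving mouse, group, pool and 2 clusterings. The annotation also holds the authors' percentage of mitochondrial UMIs per cell, as deposited, which was only checked across groups. No further doublet removal was applied here. Counts were summed per mouse, filtered with filterByExpr (14058 genes kept), scaled by TMM and tested in edgeR 4.0.16 (R 4.3.3) by quasi-likelihood with terms for 5 groups and 4 pools over all 20 mice, which share 1 estimate of the spread, with Benjamini-Hochberg adjustment at 0.05. The study itself used limma voom, which with DESeq2 1.42.0 served as an alternative. Mice of a pool deviated together from their group means (correlations 0.601, 0.427, 0.561 and 0.700), and the labels state that a pool held 1 mouse per condition, so the pool pairs the mice. SE is the log2 fold change divided by the square root of F. Shares and UMIs per cell were compared by two-sided exact permutation tests of the difference of means. These exchanged mice freely between the groups and did not use the pairing by pool. The genes named were the 10 largest rises and falls among called genes without overlap, alike in 4 pools and at a mean of at least 10 CPM, the examples and the extreme called members of each list, App, Trem2 and Tfrc, and the 5 largest differences between genotypes in each direction. Genes and lists were chosen with earlier results of these data known. Gene coordinates are those of GENCODE M21 on GRCm38. On simulated data for the comparison of ATV:4D9 with ATV:ISO (14058 genes), 87 of 100 genes changed 2-fold and 75 of 100 changed 1.5-fold were called, with 2 of 13858 unchanged genes. The simulation changed 200 genes, equally up and down, and gave the 8 compared mice a common profile without pool effects. Its rates need not hold for the real data, in which 70.7% of genes were called. PCR duplicates are collapsed by UMIs, and mice are the replicates. Alternatives were RLE scaling, no filter, no pool block, only the compared mice, cells with 1000 to 25000 UMIs, counts thinned to the smallest total, and each of the 8 compared mice left out. Scaling by cell number and leaving out cluster 3 were added after seeing the data. Results for 3 named genes are not reported here.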

Additional observations from a re-analysis of the deposited data

Results flagged for a closer look

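Among 276 groups of 4 mice (a named gene, a cluster share or the median UMIs per cell, in 1 antibody group), 18 held a mouse whose gap to the nearest other passed Dixon's critical value for 4, where chance gives about 5%. In the ATV:4D9 mouse of pool 1, 9 genes stood above the other 3 mice. These were Pkm at 1128, Ldha at 834, Cycs at 295, Ndufs8 at 139, Cox5a at 417, Idh3a at 74.2, Srm at 170.5, Rplp0 at 3256 and Psmd14 at 109 CPM. The ATV:4D9 mouse of pool 2 was low for Icam1 at 189.5, Tfrc at 16.6 and C3ar1 at 184 CPM, and that of pool 3 was high for B2m at 3716 CPM. Among ATV:ISO mice, pool 2 was high for Ank at 415 and Idi1 at 20 CPM and low for Tnf at 107 CPM, and pool 3 was high for H2-Aa at 444 and Mki67 at 19.0 CPM.

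The log2 fold change of ATV:4D9 over ATV:ISO differed between AppSAA and WT mice (edgeR interaction, adjusted p under 0.05) for 74 of 131 named genes, 25 with a larger value in AppSAA and 49 with a smaller one. Over all genes tested the share was 30.5%. The named genes include the 5 largest called differences in each direction, so part of this count was fixed by the choice. The differences above 0, in log2 units, were Cxcl13 2.56, Hspa1b 1.97, Cxcl11 1.80, Tcp11l2 1.57, Ifi213 1.55, Pik3ip1 1.41, Oasl1 1.06, Isg15 0.93 and Ifit3 0.86. Those of the next genes were Ccl12 0.82, Abca1 0.81, Cxcl10 0.73, Fcgr4 0.70, Gm40841 0.56, Fcgr3 0.54, Ccng2 0.45 and Lyn 0.45. The smallest were Syk 0.44, Tmem119 0.39, Cx3cr1 0.38, Abcg1 0.34, Csf1r 0.33, Hk2 0.33, Acads 0.31 and Cdkn1b 0.30. The deepest differences below 0, in log2 units, were Lpl -2.50, Etl4 -2.50, Tcap -2.32, Baiap2l2 -2.25, Cst7 -2.11, Psat1 -2.05, Ank -1.88, Csf1 -1.81 and Itgax -1.79. These were followed by Sqle -1.74, Ccl6 -1.71, Cd74 -1.43, Cdk1 -1.42, Tmem163 -1.37, Idi1 -1.34, Clec7a -1.22, Tsc22d1 -1.14 and Hells -1.10. A further set held Pkm -1.10, Mki67 -1.09, Dtl -1.05, H2-Aa -1.02, Top2a -1.01, Ccne1 -0.90, Ccne2 -0.85, Mcm5 -0.81 and Cdc6 -0.72. Next in size were Egr2 -0.70, Rplp0 -0.67, Ccl3 -0.67, Ccl4 -0.66, Ldha -0.60, Tnf -0.58, Tfrc -0.58 and Axl -0.54. Smaller differences were those of mt-Nd1 -0.51, Ier3 -0.51, Tyrobp -0.51, Trem2 -0.48, Uqcrh -0.44, mt-Nd4l -0.40, Hmgcs1 -0.38 and Ncl -0.38. The remaining genes were Rps27l -0.36, mt-Co1 -0.34, Ctsl -0.32, Cox5a -0.31, Hadhb -0.19 and H2-DMb1 -0.16. Under RLE scaling all 74 kept their call and sign. With counts per cell all 49 smaller values kept theirs, but only 8 of the 25 larger ones did: Cxcl13, Hspa1b, Cxcl11, Tcp11l2, Ifi213, Pik3ip1, Ccl12 and Abca1. Of the other larger ones, 5 turned in sign without being called (Csf1r, Cdkn1b, Hk2, Acads and Abcg1). Without the replicate block 11 larger and 33 smaller values were called.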

How the results depend on the processing

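The counts of genes called for ATV:4D9 against ATV:ISO ran from 8591 to 9937 under the alternatives to scaling, filter, tool, mice fitted and cells, and were 7742 without the replicate block, 9371 to 9811 with a mouse left out, 10486 per cell and 9653 without cluster 3, where the last 2 settings were added after seeing the data. The split was 4856 higher and 5087 lower, and 9514 and 972 per cell. For ATV:4D9 against 4D9 the count ran from 7633 (no block) to 10183 (per cell, 9093 higher and 1090 lower). For the difference between genotypes it was 1285 without the replicate block in place of 4284, and otherwise 3360 to 6418, with 3523 to 4826 when a mouse was left out. Its split of 2377 larger and 1907 smaller became 1797 and 2169 under RLE, 1402 and 2149 without the filter, 1835 and 2190 with DESeq2, 1839 and 2043 in cells with 1000 to 25000 UMIs, 1462 and 2061 without the ATV:4D9 mouse of pool 4, 2344 and 2639 without cluster 3, and 238 and 6180 per cell. Cluster shares and UMIs per cell kept their direction in every setting run.

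Per cell, 7 list medians turned: homeostatic 0.15, immediate early 0.23, TREM2 pathway 0.32, lysosome 0.24, lipid 0.22, mitochondrially encoded 0.45 and cholesterol synthesis 0.47. Without cluster 3 the immediate early (0.14) and ribosomal protein (-0.11) medians turned, and those of cholesterol synthesis (-0.25), fatty acid oxidation (0.04), TREM2 pathway (-0.08), lipid (-0.47), homeostatic (-0.23), mitochondrially encoded (-0.16), iron (0.09) and complement genes (0.08) moved by over 1.5 times. In cells with 1000 to 25000 UMIs the cholesterol synthesis (0.14) and mitochondrially encoded (0.04) medians turned. With a mouse left out, the medians nearest 0 changed sign for cholesterol synthesis (0.01) and ribosomal protein genes (-0.02), and the immediate early median was -0.16 without the ATV:ISO mouse of pool 1. Of 134 named genes, 21 turned per cell: Cx3cr1 0.19, Csf1r 0.25, Cd74 0.12, Uqcrh 0.21, mt-Co1 0.44, mt-Nd4l 0.36, Cpt1a 0.35, Sqle 0.46, Rps27 0.06, Atf4 0.33, Rela 0.27, Fos 0.50, Egr1 0.23, Atf3 0.19, Tyrobp 0.00, Syk 0.02, Lamp1 0.19, Abcg1 0.44, Soat1 0.05, Plin2 0.16 and C3ar1 0.48. Without cluster 3, Axl (-0.09), B2m (-0.04), Psat1 (-0.20), Fos (0.63), Egr1 (0.41) and App (-0.01) turned. In cells with 1000 to 25000 UMIs, mt-Co1 (0.01), Sqle (0.28) and Fos (0.01) turned, and Fos was 0.01 without the filter and with only the compared mice. With a mouse left out, Fos lay between 0.02 and 0.08 where it turned (0.04 without the ATV:4D9 mouse of pool 2 or 3), Sqle ranged from -0.15 to 0.03 and Plcg2 was -0.01 without the ATV:ISO mouse of pool 2, and C3ar1 was 0.01 without the ATV:4D9 mouse of pool 2. Without the block the calls for Spp1, Tmem119, Olfml3, H2-DMb1, Bcl6, Cpt1a, Atf4, Abca1, C1qa, mt-Nd1, mt-Nd4l and Atf3 were lost, with thinned counts those for Tmem119, Bcl6, Cpt1a and Abca1, and in cells with 1000 to 25000 UMIs those for Spp1, Gpnmb, Cpt1a, Abca1, mt-Nd4l and Atf3, where B2m (0.17) was called. Without cluster 3, Fos, Egr1, Psat1, Sqle (-0.37), Tnfaip3 (0.30), Cd74 (-0.67), mt-Co1 (-0.19) and Hspa1b (0.89) were called, and Atf4 (-0.02), Idi1 (0.06) and Atf3 (-0.06) were not. Abcg1 (-0.10) was called without the ATV:ISO mouse of pool 2. Leaving out cluster 3 took cells mostly from the ATV:ISO mice, so the upward shifts of immediate early genes in that setting were built in. The causes were not tested. Sums over cells limit what can be said of single cells, and 4 against 4 mice allow no permutation p under 0.0286. Within a pool, RNA per cell and molecules captured per cell cannot be separated.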
